A study of Homo sapiens with 9 samples.

Results

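Keratin-associated proteins are small, cysteine-rich or glycine- and tyrosine-rich proteins that fill the space between the keratin filaments of the hair shaft, where they are cross-linked into its hard matrix. Their genes are short, lie in dense clusters on a few chromosomes, and are known mainly from the cortex and cuticle of growing hair. HEK293, a cell line derived from human embryonic kidney, is not a cell in which hair shaft proteins are usually studied. The 8 genes described here are those whose symbols begin with KRTAP and that have a named probe in the deposited bead-array data, with 1 probe each: KRTAP19-1, KRTAP19-4, KRTAP19-5, KRTAP19-6, KRTAP20-2, KRTAP21-2, KRTAP10-3 and KRTAP10-11. They are 8 of the 11629 genes that have a probe with a single symbol, and 8 of the 94 protein-coding KRTAP genes in the RefSeq annotation, whose other members were not analysed here. The set was selected on its measured signal differences between the hairpin and the wild-type arrays, so the values of these genes are given as a description, with no test.

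The study compared 3 groups of HEK293 cells, with 3 arrays per group from individual experiments. The first carried a short hairpin RNA against AMOT (angiomotin, a membrane-associated scaffold that binds YAP), and the second a hairpin against YAP (YAP1, the transcriptional coactivator of the Hippo pathway). Wild-type HEK293 cells, for which the labels name no hairpin, were the third. The hairpin samples are titled as knockouts, but their source and the design text give hairpins and knockdown, and "AMOT hairpin" and "YAP hairpin" are used below. The labels hold no arm treated with a non-targeting hairpin and do not tell different hairpins to 1 target apart, so an effect of carrying any hairpin cannot be told apart from an effect of the target.

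Total RNA was labelled with biotin and read on 9 Illumina arrays, on which a probe counts as detected where its detection p was under 0.05. Between 19831 and 22187 of the 47231 probes were detected per array, and 22375 probes, detected on at least 3 of the 9 arrays, were tested. In the limma fit over all groups with Benjamini-Hochberg adjustment, the AMOT probe averaged 10.07 ± 0.13 log2 units in AMOT hairpin cells and 14.29 ± 0.07 in wild type (SD, n = 3 each), a difference of −4.22 (SE 0.10, adjusted p = 3.8e-08). The YAP1 probe averaged 8.84 ± 0.08 in YAP hairpin cells and 10.66 ± 0.05 in wild type (SD, n = 3 each), a difference of −1.82 (SE 0.10, adjusted p = 3.2e-06). AMOT was also lower in YAP hairpin cells than in wild type, by −0.57 (SE 0.10, adjusted p = 0.0017). Of the HEK293 markers, CDH2, KRT8 and VIM were detected on all 9 arrays and KRT18 on some. Of 15 genes that mark hair cortex and cuticle, HOXC13 and SELENBP1 had tested named probes, and none of the 17 hair keratins listed had one. Names were held only for the 20062 probes of the authors' series matrix. A gene without a named probe may therefore still be on the array, and its absence here says nothing of its expression.

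All 8 genes lie on chromosome 21, in 2 clusters that are 13.8 Mb apart on GRCh38.p14. The proximal cluster holds 6 of them over 267.6 kb. KRTAP19-1 (chr21:30479706-30480367), KRTAP19-4 (chr21:30496824-30497165), KRTAP19-5 (chr21:30501657-30502141) and KRTAP19-6 (chr21:30541535-30541864) come first, followed by KRTAP20-2 (chr21:30635206-30635619) and KRTAP21-2 (chr21:30746794-30747259). Proteins of the 19, 20 and 21 families belong to the class rich in glycine and tyrosine. The distal cluster holds KRTAP10-3 (chr21:44557790-44558795) and KRTAP10-11 (chr21:44646414-44647650) within 89.9 kb, and proteins of the 10 family belong to the high-sulphur class. RefSeq places 18 protein-coding KRTAP genes between the first and the last proximal gene described here, these included, so the measured genes are interleaved with relatives whose RNA was not analysed. The sequences of the array probes were not used, and binding of a probe to RNA of a near-identical KRTAP gene was not tested.

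Promoter sequences from RefSeq (GRCh38.p14), the 250 bases before each gene's start, were found for 7 of the 8 genes, and KRTAP19-4 had no entry. All 7 are shown, proximal genes first, so that their upstream letters can be compared. Capitals mark TATAAA and TATATAA (forms of the TATA box), and GGAATG (the core of the motif bound by the TEAD factors, partners of YAP). Both strands were searched. Each sequence runs 5′ to 3′ on the strand of its gene, with KRTAP20-2 and KRTAP10-11 on the plus strand and the other 5 on the minus strand.
KRTAP19-1, chr21:30480368-30480617: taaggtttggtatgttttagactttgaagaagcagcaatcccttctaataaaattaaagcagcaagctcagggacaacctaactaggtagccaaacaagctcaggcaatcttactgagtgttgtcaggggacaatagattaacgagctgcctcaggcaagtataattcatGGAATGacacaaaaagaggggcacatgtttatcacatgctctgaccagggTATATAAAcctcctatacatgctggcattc
KRTAP19-5, chr21:30502142-30502391: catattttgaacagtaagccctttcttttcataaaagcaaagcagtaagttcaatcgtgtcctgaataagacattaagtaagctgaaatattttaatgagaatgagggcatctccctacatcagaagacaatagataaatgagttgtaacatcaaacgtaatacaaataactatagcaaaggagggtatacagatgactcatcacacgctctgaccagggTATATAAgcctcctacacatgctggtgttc
KRTAP19-6, chr21:30541865-30542114: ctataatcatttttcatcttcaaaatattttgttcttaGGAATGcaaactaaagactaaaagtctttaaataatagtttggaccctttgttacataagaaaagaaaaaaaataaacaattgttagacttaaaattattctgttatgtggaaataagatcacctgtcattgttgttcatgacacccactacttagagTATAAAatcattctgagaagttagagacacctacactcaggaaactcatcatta
KRTAP20-2, chr21:30634956-30635205: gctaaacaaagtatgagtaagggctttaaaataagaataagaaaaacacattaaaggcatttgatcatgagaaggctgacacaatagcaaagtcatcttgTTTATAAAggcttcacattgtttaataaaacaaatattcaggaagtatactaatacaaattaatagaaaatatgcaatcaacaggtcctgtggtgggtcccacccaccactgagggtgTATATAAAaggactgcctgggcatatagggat
KRTAP21-2, chr21:30747260-30747509: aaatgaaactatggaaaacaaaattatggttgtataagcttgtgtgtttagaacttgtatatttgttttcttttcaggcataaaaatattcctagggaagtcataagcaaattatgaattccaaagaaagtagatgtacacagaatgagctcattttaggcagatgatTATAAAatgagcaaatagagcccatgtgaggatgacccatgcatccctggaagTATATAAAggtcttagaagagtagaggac
KRTAP10-3, chr21:44558796-44559045: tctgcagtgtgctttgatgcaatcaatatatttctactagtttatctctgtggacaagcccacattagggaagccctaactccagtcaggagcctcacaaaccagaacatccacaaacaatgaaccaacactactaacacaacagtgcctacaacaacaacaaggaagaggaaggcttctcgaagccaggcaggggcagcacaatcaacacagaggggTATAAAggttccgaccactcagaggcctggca
KRTAP10-11, chr21:44646164-44646413: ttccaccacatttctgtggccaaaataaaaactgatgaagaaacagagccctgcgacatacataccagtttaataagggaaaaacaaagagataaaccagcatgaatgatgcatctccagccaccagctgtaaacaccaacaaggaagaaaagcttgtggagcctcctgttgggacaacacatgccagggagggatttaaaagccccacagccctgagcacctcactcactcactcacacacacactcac

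The motif TATAAA stood in 5 of the 7 promoters, against 10.7% of the 35116 RefSeq promoters of the same length. It was present in the distal cluster too, where it began 32 bases before the start of KRTAP10-3. The longer TATATAA, which was added after the sequences had been seen and overlaps TATAAA in 3 of its 4 promoters, stood in those of KRTAP19-1, KRTAP19-5, KRTAP20-2 and KRTAP21-2, against 2.42% of all promoters. It began 30 bases before the start in KRTAP19-1 and KRTAP19-5, 32 bases before it in KRTAP20-2 and 29 bases before it in KRTAP21-2. GGAATG stood in 2 of the 7, KRTAP19-1 and KRTAP19-6, against 11.9% of all promoters. CTTTGA, the core of the LEF1 and TCF motif of the Wnt pathway, stood in 2 of the 7, KRTAP19-1 and KRTAP10-3, against 11.2%. These are matches of letters in a short window and say nothing of binding. The promoters of KRTAP19-1 and KRTAP19-5 were identical at 59.5% of 269 aligned positions, with a shared run of 20 bases, gctctgaccagggtatataa, that ends in the TATA box. Every other pair of the 7 lay between 44.9% and 51.3% identity.

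Against wild type, the YAP hairpin arrays showed the larger differences. In YAP hairpin cells all 3 arrays lay above all 3 wild-type arrays for 6 of the 8 genes, the 6 of the proximal cluster, where 24.3% of all tested probes did so. By measured means the same 6 were at least 2-fold higher in YAP hairpin cells, against 4.28% of tested probes. With undetected groups set at their detection limit they still numbered 6, against 3.75%. Of these 6, KRTAP19-5 was not set at the limit, because 1 of the 3 wild-type arrays detected it. Its difference of 1.08 was under 2-fold without replicate 2 of wild type (0.91) and with an offset of 50 (0.74). In AMOT hairpin cells 5 of the 8 lay wholly above wild type, where 22.6% of tested probes did. Their measured means were at least 2-fold higher, against 4.25% of tested probes, but at the detection limit 3 of the 8 were, against 3.61%, because KRTAP19-4 and KRTAP20-2 are then bounded below 2-fold. Between the hairpins, 6 of the 8 were lower on every AMOT hairpin array than on any YAP hairpin array, against 19.0% of tested probes. These counts come from the values that led to the choice of the genes, and nothing is read from them. All 8 passed the filter on detection, but KRTAP19-4, KRTAP20-2 and KRTAP21-2 passed it through the hairpin arrays alone.

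**Figure D1:**
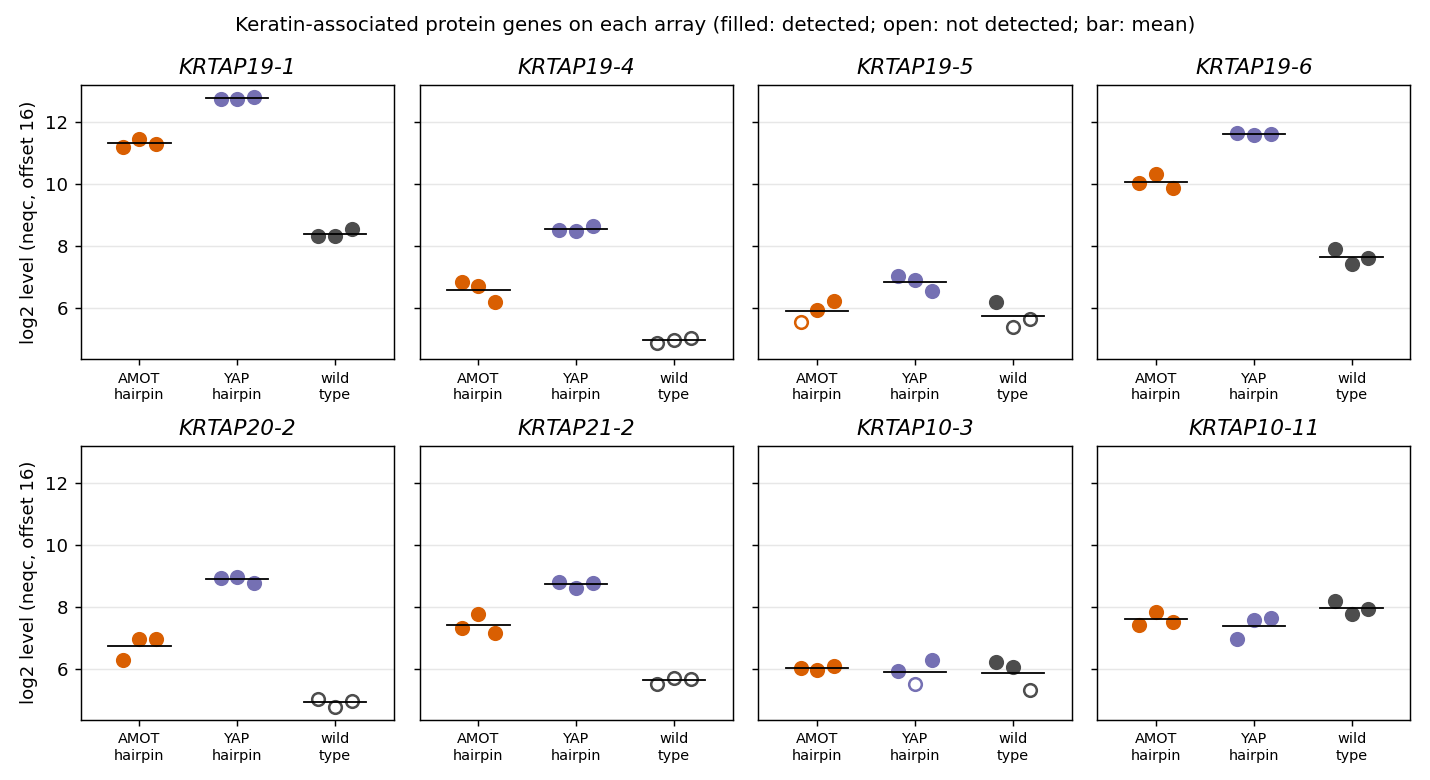
Level of each of the 8 KRTAP probes on each array, as log2 of the background-corrected, quantile-normalized signal, with AMOT hairpin, YAP hairpin and wild type from left to right; each point is 1 array, bars are group means, and open points were not detected. In the 6 panels of the proximal cluster the YAP hairpin points are the highest. In the panel of KRTAP10-3 the points of all groups overlap, and in that of KRTAP10-11 the YAP hairpin points lie below wild type. Heights of different panels are not comparable, since each probe binds with its own strength.

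KRTAP19-1 had deposited signals of 2271.5, 2431.1 and 2680.6 on the AMOT hairpin arrays, 6847.1, 7452.4 and 6743.6 on the YAP hairpin arrays, and 418.1, 541.9 and 503.8 on the wild-type arrays. The 3 groups did not overlap, and every array detected the probe. After background correction and normalization the levels were 11.32 ± 0.13 log2 units in AMOT hairpin cells, 12.76 ± 0.03 in YAP hairpin cells and 8.41 ± 0.13 in wild type (SD, n = 3 each). The level was thus higher by 2.91 (SE 0.11) in AMOT hairpin cells, or 7.53-fold, and by 4.35 (SE 0.11) in YAP hairpin cells, or 20.4-fold, than in wild type. Among the 22375 tested probes, ordered from the highest difference, KRTAP19-1 had rank 3 in YAP hairpin cells and rank 14 in AMOT hairpin cells. The gene encodes a glycine- and tyrosine-rich protein of the hair shaft.

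KRTAP19-6, of the same family, had signals of 1108.2, 1203.3 and 1119.5 on the AMOT hairpin arrays, 3323.7, 3466.1 and 3091.8 on the YAP hairpin arrays, and 340.8, 360.6 and 329.2 on the wild-type arrays. The order of the groups was that of KRTAP19-1, again without overlap. The levels were 10.08 ± 0.23 log2 units in AMOT hairpin cells, 11.61 ± 0.03 in YAP hairpin cells and 7.65 ± 0.23 in wild type (SD, n = 3 each). They were higher than in wild type by 2.43 (SE 0.15, 5.39-fold) in AMOT hairpin cells and by 3.97 (SE 0.15, 15.6-fold) in YAP hairpin cells. The ranks of these differences were 44 and 6 for the AMOT and the YAP hairpin.

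KRTAP20-2 was not detected on any wild-type array. Its signals were 217.9, 250.5 and 267.6 on the AMOT hairpin arrays, 632.6, 684.1 and 565.8 on the YAP hairpin arrays, and 145.2, 129.1 and 140.8 on the wild-type arrays. Every hairpin array lay above every wild-type array, and every YAP hairpin array above every AMOT hairpin array. Where no array of the dim group detected a probe, its level there is only bounded, and the fold is given as a minimum, taken against each array's lowest normalized signal among detected probes, or the probe's own value where that is higher. On that basis KRTAP20-2 was at least 1.74-fold higher in AMOT hairpin cells and at least 7.65-fold higher in YAP hairpin cells than in wild type. The measured means were 6.75 ± 0.39, 8.88 ± 0.10 and 4.93 ± 0.14 log2 units in AMOT hairpin, YAP hairpin and wild-type cells (SD, n = 3 each).

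KRTAP21-2, a further glycine- and tyrosine-rich member, was likewise below detection on all wild-type arrays. It had signals of 297.7, 329.8 and 286.9 on the AMOT hairpin arrays, 591.5, 570.7 and 565.2 on the YAP hairpin arrays, and 178.3, 210.4 and 188.7 on the wild-type arrays. The groups stood apart in the same order. The level was at least 2.78-fold higher in AMOT hairpin cells and at least 6.86-fold higher in YAP hairpin cells, with measured means of 7.42 ± 0.32, 8.73 ± 0.09 and 5.64 ± 0.09 log2 units in AMOT hairpin, YAP hairpin and wild-type cells (SD, n = 3 each).

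KRTAP19-4 was the third gene without detection in wild type. Its signals were 255.8, 233.3 and 206.3 on the AMOT hairpin arrays, 516.6, 532.3 and 527.6 on the YAP hairpin arrays, and 130.7, 155.7 and 148.1 on the wild-type arrays. It was at least 1.57-fold higher in AMOT hairpin cells and at least 6.09-fold higher in YAP hairpin cells, without overlap of the groups. The measured means were 6.60 ± 0.35, 8.56 ± 0.07 and 4.98 ± 0.08 log2 units in AMOT hairpin, YAP hairpin and wild-type cells (SD, n = 3 each).

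KRTAP19-5 stood at the edge of detection and differed least among the 6. It had signals of 179, 190 and 208.8 on the AMOT hairpin arrays, 271.9, 265.3 and 230.3 on the YAP hairpin arrays, and 207, 191.7 and 187 on the wild-type arrays. The AMOT hairpin and wild-type values overlapped, and the YAP hairpin values lay above both. Detection held on 2 of the 3 AMOT hairpin arrays, on all 3 YAP hairpin arrays and on 1 of the 3 wild-type arrays. The YAP hairpin level was higher than wild type by 1.08 log2 units (SE 0.23). The AMOT hairpin difference of 0.16 (SE 0.23) was smaller than the SD within either group, 0.34 in AMOT hairpin cells and 0.40 in wild type. It was −0.01 without replicate 2 of wild type or without replicate 3 of the AMOT hairpin.

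The distal genes showed another picture. KRTAP10-3, a high-sulphur protein gene, had signals of 203.9, 191.1 and 198.8 on the AMOT hairpin arrays, 195.6, 174.7 and 213.7 on the YAP hairpin arrays, and 208.4, 232.7 and 169.1 on the wild-type arrays. All 3 groups overlapped near the detection limit, and the differences from wild type were 0.14 in AMOT hairpin cells and 0.03 in YAP hairpin cells (SE 0.25). KRTAP10-11 was detected on every array, with signals of 307.7, 338.3 and 330.8 on the AMOT hairpin arrays, 265.9, 342.4 and 334.3 on the YAP hairpin arrays, and 392.1, 418.3 and 378.2 on the wild-type arrays. Its YAP hairpin level lay below wild type on every array, with a difference of −0.58 (SE 0.20), and it was the 1 gene of the 8 to do so, where 24.5% of tested probes did. Its AMOT hairpin level differed from wild type by −0.37 (SE 0.20) and overlapped it after quantile normalization, although not after median scaling.

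**Figure D2:**
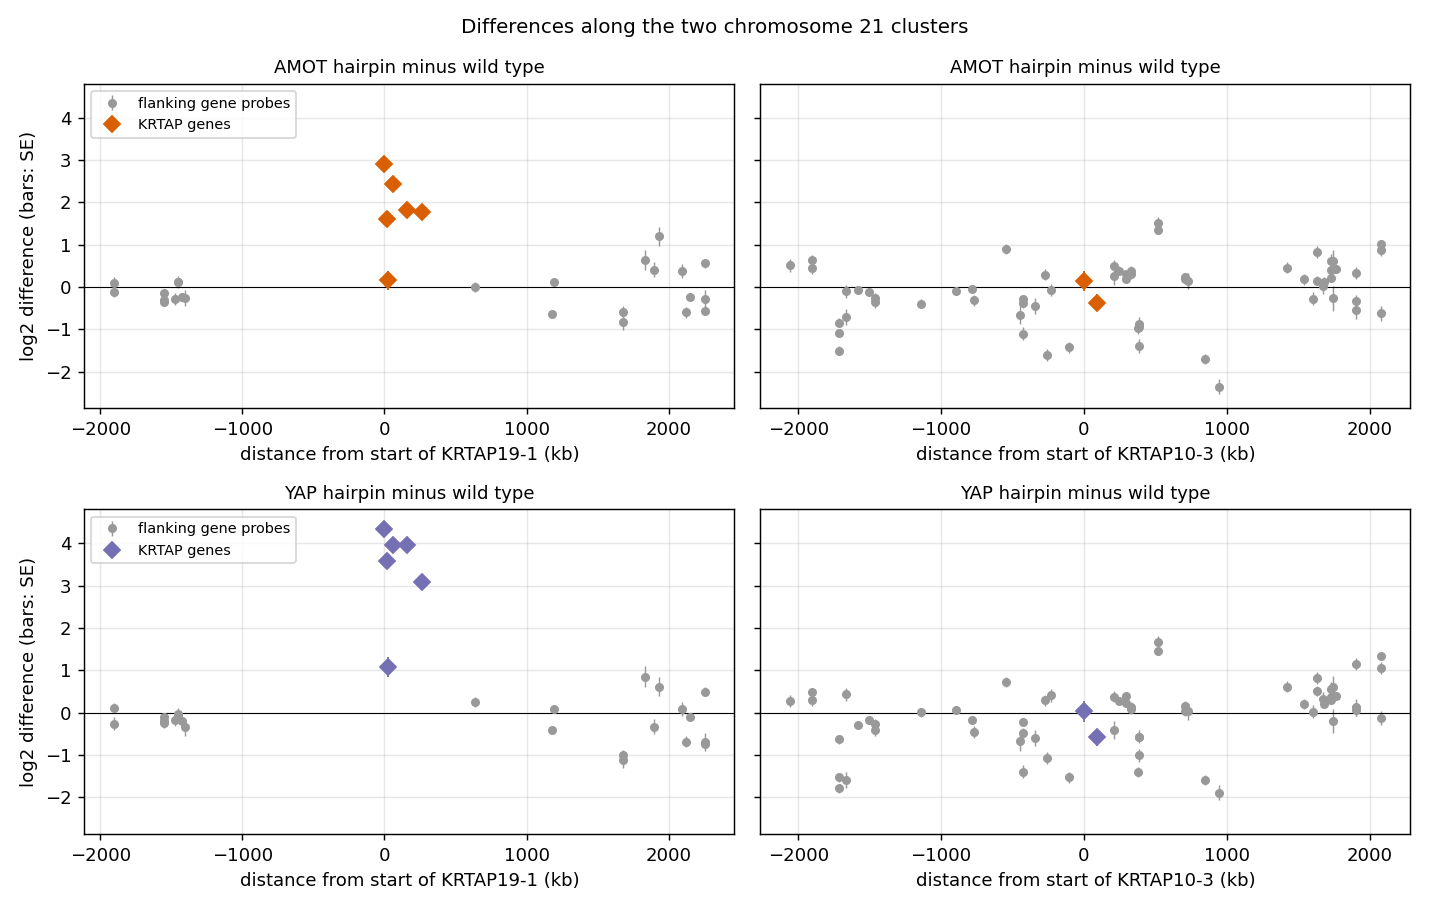
Difference from wild type (log2) of the KRTAP probes (diamonds) and of tested probes within 2 Mb of them (grey), against distance in kb from the start of KRTAP19-1 (left) and of KRTAP10-3 (right), for the AMOT hairpin (top) and the YAP hairpin (bottom); bars are SE. The proximal KRTAP probes reach 4.35 in YAP hairpin cells, while the grey probes of the left panels reach 0.86 with the YAP hairpin; probes undetected in wild type, EVA1C among them, are drawn at their measured values.

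Genes around the clusters were not used to choose the KRTAP set and could be tested. Within 2 Mb of a KRTAP gene described here, 87 probes of 58 other genes were tested. In the limma fit, 19 rose and 23 fell in AMOT hairpin cells, or 48.3%, where 35.1% of all tested probes passed the adjusted p of 0.05. In YAP hairpin cells 18 rose and 24 fell, or 48.3%, against 37.3% of all tested probes. Beside the proximal cluster itself, 24 probes of 17 genes were tested. Of these 2 rose and 6 fell in each hairpin group against wild type, or 33.3%, slightly below the shares of all tested probes. The highest in AMOT hairpin cells was EVA1C, undetected in wild type and at least 1.75-fold higher (adjusted p = 0.0026). The highest in YAP hairpin cells was URB1, with a difference of 0.86 (adjusted p = 0.022). The median difference over those 24 probes was −0.18 for the AMOT hairpin and −0.18 for the YAP hairpin. In YAP hairpin cells no measured difference of these 24 probes reached the minimum fold of KRTAP19-1, KRTAP19-6, KRTAP20-2, KRTAP21-2 or KRTAP19-4. In AMOT hairpin cells the minimum of EVA1C lay close to those of KRTAP20-2 and KRTAP19-4, so their order is not settled. The 190 probes of named chromosome 21 genes outside the KRTAP family include the flanking ones. Of them, 50% were called in AMOT hairpin cells and 48.9% in YAP hairpin cells, close to the shares over all 87 flanking probes.

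The nearest tested genes on either side of the proximal cluster were TIAM1, an exchange factor for the GTPase RAC1, 371.2 kb away, and MAP3K7CL, 1303.8 kb away. TIAM1 differed from wild type by −0.00 (adjusted p = 0.98) in AMOT hairpin cells and by 0.26 (adjusted p = 0.11) in YAP hairpin cells. MAP3K7CL differed by −0.26 (adjusted p = 0.35) and −0.35 (adjusted p = 0.20) in AMOT and YAP hairpin cells, so that neither neighbour passed the test. SOD1, the cytosolic superoxide dismutase, lay in the same region and fell by 0.64 in AMOT hairpin cells (adjusted p = 6.5e-04) and fell by 0.40 in YAP hairpin cells (adjusted p = 0.0077).

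Beside the distal cluster, 63 probes of 41 genes were tested. In AMOT hairpin cells 17 rose and 17 fell, or 54%, against 35.1% of all tested probes. In YAP hairpin cells 16 rose and 18 fell, or 54%, against 37.3%. LRRC3, a leucine-rich repeat gene 95.6 kb away, fell by 1.42 in AMOT hairpin cells (adjusted p = 6e-05) and fell by 1.52 in YAP hairpin cells (adjusted p = 3.7e-05). ADARB1, an RNA-editing adenosine deaminase, rose at both probes, by 1.35 and 1.52 in AMOT hairpin cells and by 1.46 and 1.66 in YAP hairpin cells. COL18A1, a basement membrane collagen, fell by 1.71 in AMOT hairpin cells (adjusted p = 1.1e-05) and fell by 1.59 in YAP hairpin cells (adjusted p = 1.5e-05). PFKL, the liver-type phosphofructokinase, fell by 1.60 in AMOT hairpin cells and fell by 1.07 in YAP hairpin cells. SLC19A1, undetected in AMOT hairpin cells, was at least 4.01-fold lower there than in wild type (adjusted p = 1.4e-05). In YAP hairpin cells it differed by −1.88 (adjusted p = 4.4e-05).

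Between the hairpins, the 6 proximal genes were all lower with the AMOT hairpin. The difference between AMOT and YAP hairpin cells was −1.43 (SE 0.11) for KRTAP19-1, which was 2.70-fold lower, and −1.54 (SE 0.15) for KRTAP19-6, which was 2.90-fold lower. For the genes below detection in wild type it was −1.96 (SE 0.16) for KRTAP19-4, −2.14 (SE 0.18) for KRTAP20-2 and −1.30 (SE 0.15) for KRTAP21-2. Both hairpin groups detected these 3 probes on every array. KRTAP19-5 differed by −0.92 (SE 0.23). The distal genes differed by 0.11 (SE 0.25) for KRTAP10-3 and 0.21 (SE 0.20) for KRTAP10-11, and their arrays overlapped. At least 2-fold lower levels in AMOT hairpin cells were found for 5 of the 8, against 1.03% of tested probes.

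**Figure D3:**
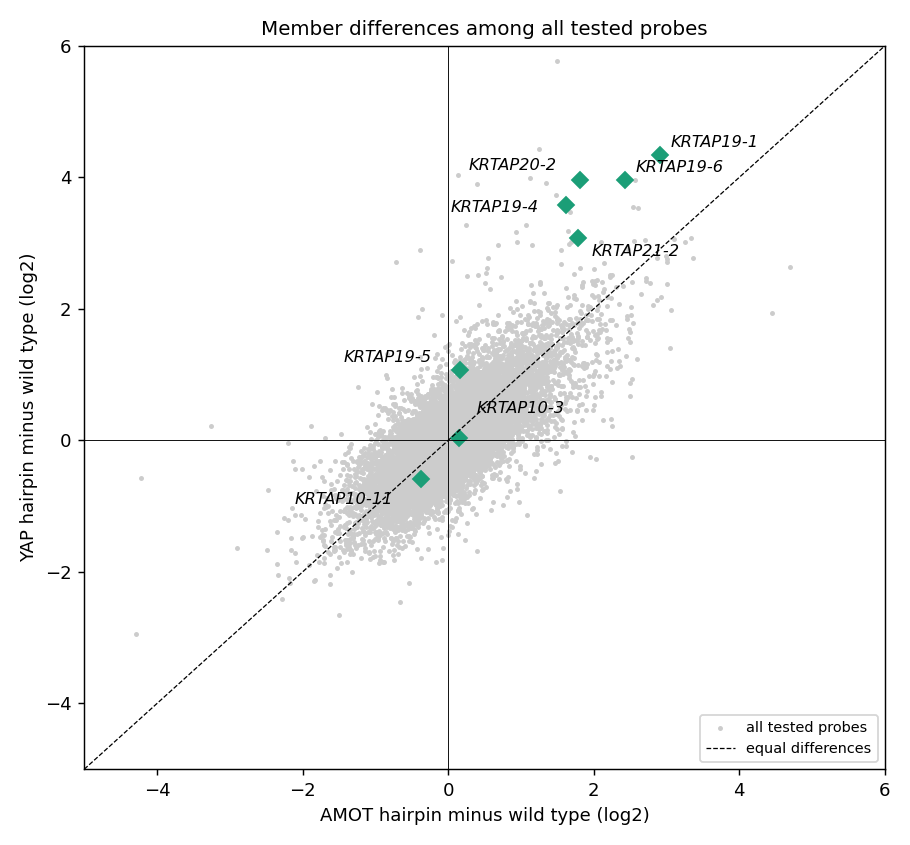
Difference from wild type (log2) in YAP hairpin cells (vertical) against that in AMOT hairpin cells (horizontal) for all tested probes, with the 8 KRTAP probes named and the diagonal drawn. Both axes share the wild-type arrays, so the 2 differences are not independent; the 6 proximal KRTAP probes lie above the diagonal.

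Over the 8 genes the median of the measured differences was 1.70 in AMOT hairpin cells and 3.33 in YAP hairpin cells against wild type, and −1.37 between AMOT and YAP hairpin cells. Both medians against wild type rest on KRTAP19-4 and KRTAP21-2, undetected there, and with undetected groups at their limit they were 0.72 and 2.69. Over all tested probes the medians were −0.02, −0.01 and −0.00. The comparisons with wild type share the wild-type arrays, and no relation between them is given. Among the flanking probes the difference between the hairpins was called for 4 that rose and 7 that fell in AMOT relative to YAP hairpin cells, or 12.6%, where 17.4% of all tested probes were called. That count of 11 dropped to between 4 and 6 when any 1 of the 6 hairpin arrays was left out. In total RNA of a culture, fewer cells expressing a gene and less RNA per cell cannot be told apart.

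The sizes of the differences depended on the handling of the background. In wild type 3 of the 8 probes were detected on no array, and KRTAP19-5 and KRTAP10-3 on some. Without background correction the median difference was 0.77 in AMOT hairpin cells and 1.76 in YAP hairpin cells, and 2 and 5 of the 8 genes were at least 2-fold higher. With the authors' series matrix values the medians were 0.77 and 1.74, and 2 and 5 genes were again at least 2-fold higher.

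**Figure D4:**
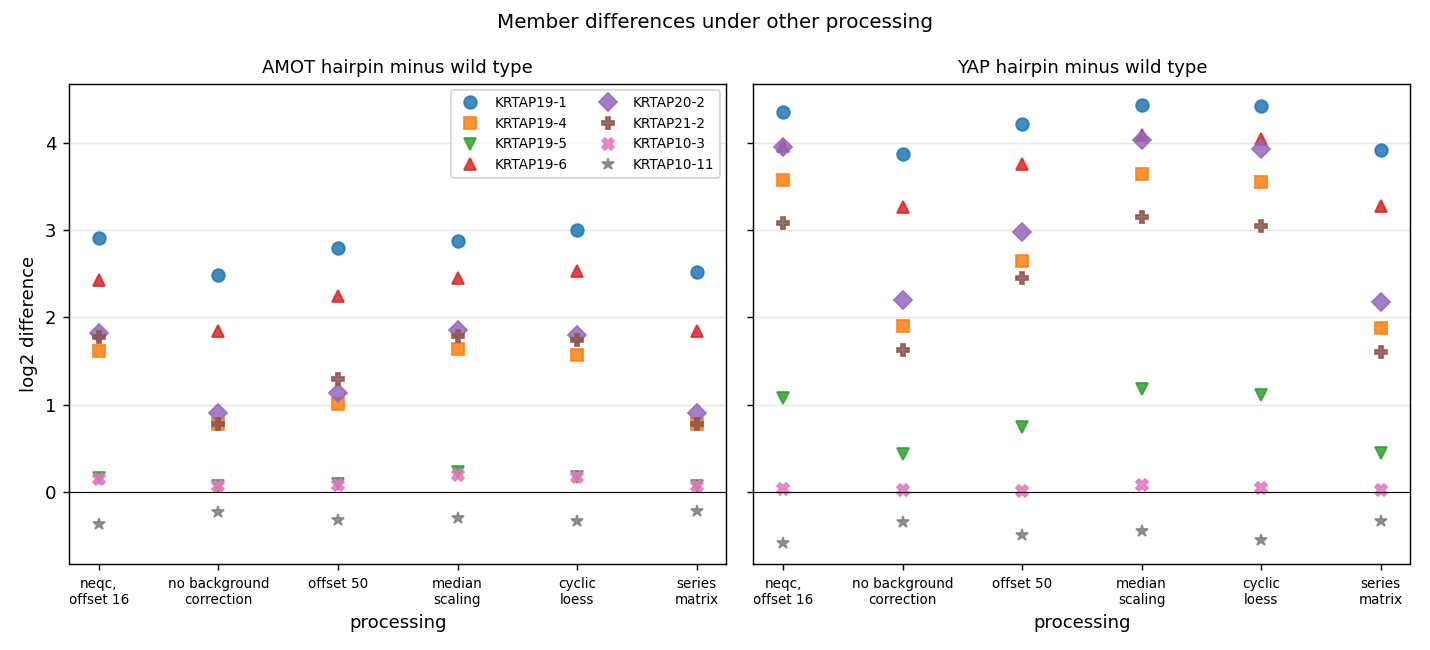
Difference from wild type (log2) of each KRTAP probe under the main processing and the alternatives, for the AMOT hairpin and the YAP hairpin; each column is 1 setting and each symbol 1 gene. The differences of the proximal genes are smaller without background correction and with the series matrix values, and keep their sign in every setting drawn.

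Other genes of hair and skin biology were tested from lists of 105 genes, of which 28 had a tested named probe, 33 probes in all. In AMOT hairpin cells 8 rose and 6 fell (42.4%, against 35.1% of all tested probes), and the count of 14 was 9 without replicate 1 of the AMOT hairpin. In YAP hairpin cells 9 rose and 3 fell (36.4%, against 37.3%). Between the hairpins 3 rose and 9 fell in AMOT relative to YAP hairpin cells (36.4%, against 17.4%), and the 12 became 7 when replicate 1 or 2 of either hairpin group was left out. The median differences of these probes, 0.03 and 0.11 against wild type in AMOT and YAP hairpin cells, lay close to those of all tested probes.

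HOXC13, the homeobox factor of the hair cortex, which is known to drive hair keratin genes, fell by 0.96 in AMOT hairpin cells (SE 0.13, adjusted p = 4.1e-04), and its difference in YAP hairpin cells was −0.05 (SE 0.13, adjusted p = 0.81). LHX2, a homeobox factor of hair follicle stem cells, rose by 1.03 in AMOT hairpin cells and by 1.63 in YAP hairpin cells (adjusted p = 1.4e-04 and 1e-05), and was lower by −0.61 in AMOT than in YAP hairpin cells (adjusted p = 0.006). Its group means thus stood in the order of those of the proximal KRTAP genes.

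WNT3A, a ligand of the Wnt pathway, rose in AMOT hairpin cells by 1.79 (adjusted p = 9.2e-06) and in YAP hairpin cells by 0.71 (adjusted p = 0.0014), and was higher by 1.08 in AMOT than in YAP hairpin cells (adjusted p = 4.8e-04), the other way round from the 6 proximal KRTAP genes. KRTDAP and EDARADD were also higher in AMOT than in YAP hairpin cells (adjusted p = 0.0013 and 0.004), while 9 hair and skin probes were called lower. KRTDAP, detected only in AMOT hairpin cells, was at least 1.30-fold higher there than in YAP hairpin cells, and EDARADD was higher by 0.72. BMP2, a secreted signal in hair follicle cycling, rose by 1.25 in YAP hairpin cells (adjusted p = 9.5e-05), and its difference in AMOT hairpin cells was 0.27 (adjusted p = 0.14). DLX1, a homeobox gene, fell at both probes, with differences of −1.16 and −0.73 in AMOT hairpin cells and −1.28 and −0.94 in YAP hairpin cells. KRT8, a keratin of simple epithelia, rose by 0.68 in AMOT hairpin cells (adjusted p = 0.015) and by 1.28 in YAP hairpin cells (adjusted p = 4.7e-04). KRT10, a keratin of the upper epidermis, fell by 0.44 in AMOT hairpin cells (adjusted p = 0.0073), with a difference of 0.01 in YAP hairpin cells.

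Markers of other cell types did not all move alike. The summed normalized signal of 7 neuron markers (STMN2, SNAP25, TUBB3, ENO2, SYP, CHGA and CHGB) lay between 2543.4 and 2704.3 on the AMOT hairpin arrays, between 9019 and 9578.4 on the YAP hairpin arrays and between 1250.3 and 1345.6 on the wild-type arrays. Of their 8 probes, 6 were called higher than wild type in AMOT hairpin cells and 8 in YAP hairpin cells. All 8 were called lower in AMOT than in YAP hairpin cells. Of all tested probes, 35.1%, 37.3% and 17.4% were called in either direction in these comparisons. The group means of the 8 stood in the order of those of the proximal KRTAP genes. CHGB, SNAP25 and 1 of the 2 STMN2 probes were not detected on any wild-type array. That STMN2 probe was not detected on any AMOT hairpin array either, so its order between these groups is not settled. The hair cortex and cuticle markers HOXC13 and SELENBP1 summed to between 735 and 890 on the AMOT hairpin arrays, between 1169 and 1372.2 on the YAP hairpin arrays and between 1082.7 and 1241.1 on the wild-type arrays. This sum mixes directions, since HOXC13 fell in AMOT hairpin cells. In the limma fit SELENBP1 rose by 0.72 in AMOT hairpin cells (adjusted p = 0.032) and by 0.69 in YAP hairpin cells (adjusted p = 0.038). Of 5 melanocyte markers PMEL and MITF were tested, with sums of 559.2 to 645.9, 695.3 to 819.2 and 366.4 to 372.2 on the AMOT hairpin, YAP hairpin and wild-type arrays. The higher sums came from PMEL, at 8.57, 8.96 and 6.58 log2 units in AMOT hairpin, YAP hairpin and wild-type cells. MITF averaged 7.77, 7.92 and 8.10 in the same order and was not called against wild type. The part of any other cell type in the KRTAP differences was not tested.

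To place the pattern among all named probes, each was set against KRTAP19-1 over the 9 arrays, with both taken relative to their own wild-type mean, and the likeness was measured as the root mean square difference in log2 units. Of the KRTAP genes, KRTAP19-6 lay at 0.39, and KRTAP19-5, KRTAP10-3 and KRTAP10-11 lay at 2.48, 2.98 and 3.42. For a gene undetected in wild type the likeness rests on a level that is only bounded, so it is given for the measured values and with wild type at its detection limit. It was 0.69 and 1.48 for KRTAP20-2, 0.89 and 1.66 for KRTAP19-4, and 0.99 and 1.24 for KRTAP21-2. Counted from KRTAP19-1 itself as rank 1, these 3 genes had ranks 6, 12 and 24 by measured values. With wild type at its limit the ranks were 58, 107 and 26. NMNAT2, an enzyme that makes NAD in axons, came nearest by measured values at 0.34, but lay at 0.74 with wild type at its limit, behind OLFM1 at 0.56. NMNAT2 was at least 4.12-fold higher in AMOT hairpin cells and at least 10.7-fold higher in YAP hairpin cells. OLFM1 encodes a secreted glycoprotein of the nervous system. UNC5A, a receptor for the axon guidance cue netrin, lay at 0.53 by measured values and at 1.18 with wild type at its limit.

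FOXN4, a forkhead factor of retinal progenitors, lay at 0.78, and the other 6 of the 10 nearest were PAQR6, HSPB8, PLA2G4C, SYNGR1, CACNG6 and CRMP1, at 0.78 to 0.90 by measured values. With wild type at its limit PAQR6, PLA2G4C and CACNG6 lay at 1.11, 0.97 and 1.39. The list of the nearest then changes, since GEM, TCEAL7 and CFAP70, at 0.92, 0.95 and 0.96, lay nearer than these. CRMP1, which acts in semaphorin signalling in growing axons, differed from wild type by 1.68 in AMOT hairpin cells and by 3.47 in YAP hairpin cells, with the wider gap between the hairpins. HSPB8, a small heat shock protein, differed by 3.34 in AMOT hairpin cells and by 3.08 in YAP hairpin cells, without that gap. The 10 genes nearest by measured values were picked for their likeness, so their differences are not tested here, and they lie on chromosomes other than 21.

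**Figure D5:**
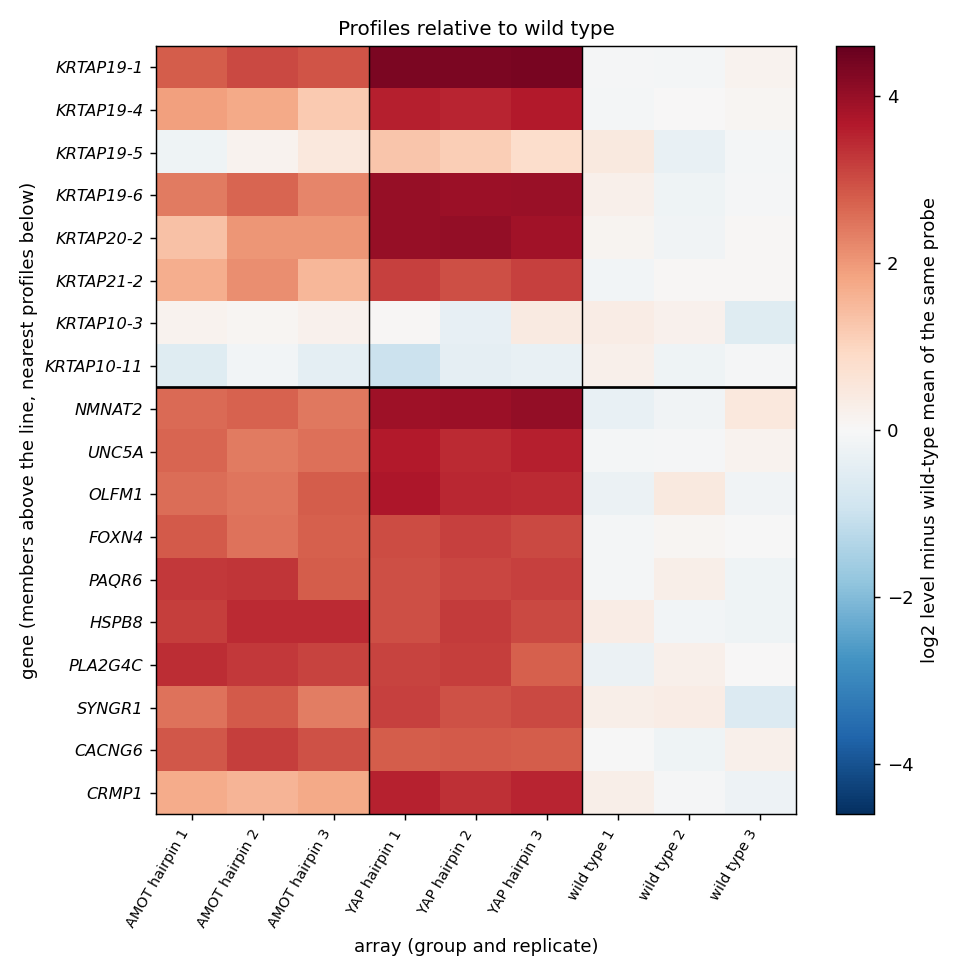
Heat map of the log2 level relative to the wild-type mean of the same probe on each of the 9 arrays (columns), for the KRTAP probes (upper rows) and for the named probes nearest in profile to KRTAP19-1, with AMOT hairpin, YAP hairpin and wild-type arrays from left to right. KRTAP19-1 stands 4.35 above wild type on average on the YAP hairpin arrays and 2.91 above it on the AMOT hairpin arrays; genes undetected in wild type, such as NMNAT2, are drawn at their measured values.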

How the data were processed

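Expression was measured in 9 cultures of HEK293 cells with Illumina bead arrays. The authors deposited a non-normalized table of signal intensity per probe, with a detection p-value per probe and array, and a series matrix of 20062 probes, whose values rank the probes of each array as the table does. No label or file header states the scanner settings or how the matrix was normalized. Probe names come from the platform annotation and were held only for probes of the series matrix, and 31.8% of tested probes carried no single symbol. The intensities were background-corrected against detection p, given an offset of 16, quantile-normalized and log2-transformed with neqc (limma 3.58.1, R 4.3.3). Probes with detection p under 0.05 on at least 3 arrays entered 1 limma fit of the 3 group means over all 9 arrays (lmFit, eBayes), with Benjamini-Hochberg adjustment per comparison over all 22375 probes and a threshold of 0.05. The fit was tested on simulated data. Quantile normalization forces 1 distribution on every array, and background correction widens differences of dim probes. The p-values measure the spread between 3 individual experiments per group, and the number of arrays limits the precision.

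Named flanking and hair genes were taken from the called genes with the smallest adjusted p, up to 10 per comparison and list. Others were the nearest by position or the highest beside the proximal cluster, and not every gene within the rule is named. The 10 nearest profiles follow a fixed rule, while SOD1 was named after its values were seen. The KRTAP genes, gene lists and marker lists were chosen with earlier results of these data known. Alternatives were no background correction, an offset of 50, median scaling, cyclic loess, the series matrix, a detection p under 0.01, no filter, the replicate number as a block, and each array left out.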

Additional observations from a re-analysis of the deposited data

How the results depend on the processing

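The median KRTAP difference moved most with the background: without correction it was 0.77 (AMOT hairpin against wild type), 1.76 (YAP hairpin against wild type) and −0.98 (AMOT against YAP hairpin). With the series matrix it was 0.77, 1.74 and −0.97, and with an offset of 50 it was 1.07 and 2.55 against wild type, while a detection p under 0.01, which removed KRTAP10-3, gave 3.58 for the YAP hairpin. With undetected groups at their detection limit, an alternative added after seeing the data, it was 0.72, 2.69 and −1.37. Under these, median scaling and cyclic loess the 6 proximal genes stayed above wild type on average. Median scaling called 2390 probes between the hairpins in place of 3904, of which 863 were higher and 1527 lower in AMOT hairpin cells (1926 and 1978 under quantile normalization), and in YAP hairpin cells it called 3803 higher and 2478 lower than wild type (4147 and 4191). Flanking probes called between the hairpins numbered 6 with median scaling and 5 with no filter, in place of 11. Leaving out 1 array at a time gave 6246 to 7498 probes called for the AMOT hairpin, 6620 to 8189 for the YAP hairpin and 2470 to 3982 between them, the last being 2503, 2470 and 2554 without AMOT hairpin replicate 1, YAP hairpin replicate 1 and YAP hairpin replicate 2. Flanking calls ranged over 33 to 42, 33 to 41 and 4 to 12, hair and skin calls over 9 to 12, 10 to 12 and 7 to 12, and the median KRTAP differences over 1.57 to 1.76, 3.28 to 3.37 and −1.49 to −1.30. With the replicate number as a block, 7233, 7837 and 3304 probes were called, and 12, 11 and 8 hair and skin probes. Same-numbered arrays correlated between −0.131 and 0.099 in their deviations from the group means, and arrays of different numbers between −0.123 and 0.12. No pairing by number was thus seen, but whether the numbers mark shared experiments was not tested. Of the settings for single KRTAP genes, 363 moved the difference by less than 1 SD between replicates and 42 by more. The 363 include settings that cannot change the difference of a single gene. These are the other detection filters, the replicate block, and leaving out an array of the group not compared. The count of 363 is therefore no measure of stability. The larger moves came without background correction, with an offset of 50 or with the series matrix. The only exception was KRTAP19-1 between the hairpins under median scaling, and the cause was not tested. Signals near background limit KRTAP10-3 in all groups, KRTAP19-5 in AMOT hairpin and wild-type cells, and 3 further genes in wild type.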

Other observations

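Grouping tested genes by the letters that open their symbols gave 390 families with at least 5 tested genes. By measured means, the KRTAP genes and the SYT genes (synaptotagmins, the calcium sensors of vesicle release) each had 6 of 8 members at least 2-fold higher in YAP hairpin cells than in wild type, or 75%. With groups that did not detect a probe set at their detection limit, the KRTAP genes still had 6 of 8 and the SYT genes 4 of 8, or 50%. The 6 include KRTAP19-5 at its measured difference of 1.08, because 1 wild-type array detected it. The AMY (amylase) and ENO (enolase) families had 3 of 5 each, or 60%, on both scales. These shares count tested genes only. KRTAP19-4, KRTAP20-2 and KRTAP21-2 passed the detection filter through the hairpin arrays alone, so the filter itself raises the KRTAP share. The KRTAP genes had been chosen with this pattern known, and no test was made.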
